A study of Macaca radiata with 6 samples.

Results

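The genes described here drive or restrain the cell division cycle: cyclins, cyclin-dependent kinases (CDKs), CDK inhibitors, cell division cycle (CDC) genes, the MCM and origin recognition complex (ORC) proteins that prepare chromosomes for replication, and the E2F transcription factors. They were chosen by gene symbol alone, as symbols that begin with CCN, CDK, CDKN1, CDKN2, CDC, MCM, ORC or E2F followed by the letter or number of a family member. Of 14132 genes that the arrays measured under a single symbol, 89 met this rule. By role, 42 of them belong to the machinery of the proliferative cycle, 5 are CDK inhibitors, 11 are cyclins and kinases of transcription, 13 are other cyclins and kinases, and 18 match by symbol only, such as the CDC42 GTPase and its effectors.

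Expression was measured in corpus luteum (CL) of female bonnet monkeys that had reached luteal day 7. One group was injected once under the skin with Cetrorelix (CET), at 150 μg/kg body weight, and the other with 5.25% glucose as vehicle (VEH). Cetrorelix blocks the GnRH receptor of the pituitary and so deprives the CL of LH. CL was taken 24 h after the injection, and 3 CET samples (replicates 1, 2 and 3) and 3 VEH samples (replicates 4, 5 and 6) were hybridised, each to its own rhesus macaque array, so that probes designed for a related species read the RNA. The design text states that both treatments used the same monkeys, but no label ties a CET sample to a VEH sample, so the groups were compared without pairing, and p-values measure the spread between these samples only.

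Progression through the cycle depends on cyclins, which rise and fall in turn and activate CDKs. D and E cyclins act before S phase, and A and B cyclins with their kinases bring the cell through S phase and mitosis. The inhibitors of the CDKN1 and CDKN2 families hold the kinases in check. In the primate CL, the steroidogenic luteal cells have largely left the cycle after ovulation, while endothelial and other stromal cells divide as the vessels form. In tissue RNA, fewer cells of a type cannot be told apart from less RNA per cell.

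No cyclin, CDK, CDK inhibitor or replication gene differed between CET and VEH after adjustment over all probe sets. The smallest adjusted p among the 89 genes was 0.83 by limma with Benjamini-Hochberg adjustment, and no probe set of the whole array passed either. At an unadjusted p under 0.05, CDC25C was higher and ORC4 lower after CET, which is 2 of 89 genes (2.25%) against 5.03% of all genes (2.02% higher and 3.01% lower). The samples of the groups did not overlap for 4 genes (4.49%), namely CDC25C on the higher side and ORC4, CDC26 and E2F5 on the lower side, against 11.5% of all genes (5.07% higher and 6.45% lower). Both shares lay below those of the whole array, but the first was 6.74% against 4.2% without VEH replicate 4 and 4.49% against 4.01% without CET replicate 3. All of the genes named here belong to the 42 of the proliferative cycle. Over those 42 the shares were 4.76% and 9.52%, nearer to the 5.03% and 11.5% of all genes.

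The direction of the mean was likewise close to that of all genes. The CET mean was the lower of the pair for 51 of 89 genes (57.3%), against 54.7% of all genes. On the log2 scale, where 1 unit is a 2-fold change, the median difference of CET from VEH was -0.093 over the 89 genes and -0.084 over all genes, with the middle of the distribution from -0.56 to 0.28 and the extremes at -2.43 and 1.33. A mean at least 1.5-fold lower was seen for 22 genes (24.7%) against 24% of all genes, and one at least 1.5-fold higher for 11 genes (12.4%) against 18.6%. Of the 42 genes of the proliferative cycle, the mean was lower after CET in 24 and higher in 18, with a median of -0.080.

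**Figure D1:**
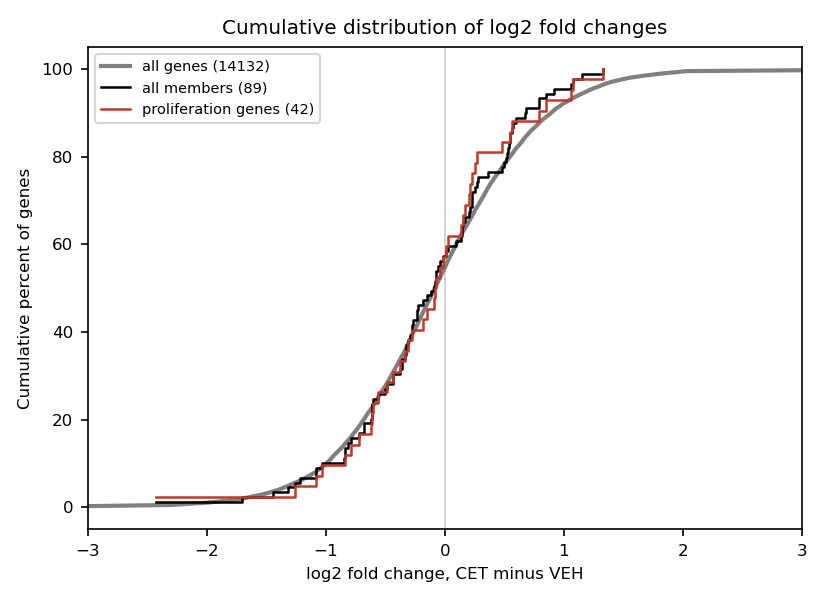
Cumulative percent of genes (vertical axis) against the log2 fold change of CET minus VEH (horizontal axis) for all 14132 genes (grey), the 89 cyclin, CDK and replication genes (black) and the 42 of them in the proliferative cycle (red). The 3 curves run close together and cross 50 percent at -0.084, -0.093 and -0.080.

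Absence of a call was not evidence of equal levels, because the intervals were wide. The 95% confidence interval of the change lay within a 2-fold change in both directions for CDK4 alone, 1 of 89 genes (1.12%, against 2.02% of all genes), and within a 4-fold change for 57 genes (64.0%, against 54.0%). The 3 VEH samples were further apart from each other than the 2 group means in 65 of 89 genes (73.0%, against 74.1% of all genes). For the median gene of the set, the VEH samples spanned 0.81, the CET samples spanned 1.31 and the means differed by 0.48. The CET samples were the more dispersed group, as they were over all genes, where the median spans were 0.92 for VEH and 1.41 for CET.

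Among the D cyclins and their kinases, which carry growth signals into the cycle, CDK6 and CCND1 had higher and CCND3 and CDK4 lower means after CET. CDK6, a kinase activated by D cyclins, read 9.71, 10.57 and 11.93 in CET replicates 1, 2 and 3 and 10.10, 9.20 and 9.69 in the VEH replicates, on the log2 signal scale used throughout. CET replicates 2 and 3 lay above every VEH sample and CET replicate 1 did not, and the log2 fold change was 1.08 ± 0.57 (SE, n = 3 each; unadjusted p = 0.087 by limma). Without CET replicate 3 it was 0.49, and without CET replicate 1 it was 1.58. A second CDK6 probe set gave 0.057.

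CCND1 encodes cyclin D1, a partner of CDK4 and CDK6. Its signal was 10.37, 9.63 and 9.24 after CET and 9.03, 9.59 and 8.95 after VEH, so that the groups overlapped at the top of the VEH range and the difference was 0.55 ± 0.49. CCND3, a second D cyclin, read 10.89, 10.52 and 9.55 against 11.30, 10.46 and 10.66, a difference of -0.48 ± 0.48 that rested largely on the low CET replicate 3. CDK4 was the gene whose interval lay within a 2-fold change. It gave 11.69, 10.79 and 11.14 after CET and 11.54, 11.01 and 11.35 after VEH, a log2 fold change of -0.093 with an interval from -0.996 to 0.81. The D cyclin CCND2 has no probe set under its symbol alone and was not analysed here.

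The E cyclins and CDK2 form the kinase that opens S phase. CCNE1 differed by 0.26 ± 0.56 and CDK2 by -0.074 ± 0.68, with overlapping samples in both. CCNE2 lay below the 40th percentile of mean signal over all probe sets, the limit under which a probe set is called dim here, and its samples ran from 4.44 to 7.30 after CET and from 5.08 to 8.62 after VEH. Its log2 fold change was -1.03 ± 1.12, so the error was larger than the difference. In all, 77 of the 89 genes lay above the dim limit and 12 below it. For 4 of the 77 (CDC42EP1, CDC14A, ORC4 and ORC3) the mean of 1 group was below the limit.

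The A and B cyclins and CDK1, whose transcripts are made from S phase to mitosis, showed no common direction. Means were lower after CET for 4 of the 7 genes and higher for 3, the median was -0.038 and the extremes were -0.62 and 0.56. CCNF was counted in this group, and CCNA1 and CCNB3 were dim. CDK1, the mitotic kinase itself, read 9.17, 8.15 and 8.21 after CET and 8.78, 9.58 and 9.01 after VEH. CET replicates 2 and 3 were below every VEH sample while CET replicate 1 was inside the VEH range, and the difference was -0.61 ± 0.54.

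The spread within VEH was wide for these cyclins. CCNA2 (cyclin A2) read 9.52, 9.24 and 8.62 after CET against 8.21, 10.18 and 9.43 after VEH, and CCNB1 (cyclin B1) read 10.20, 9.45 and 9.43 against 8.65, 10.37 and 9.67. In both genes the lowest and the highest of all 6 samples were VEH replicates 4 and 5, and all CET samples lay between them. The log2 fold changes were -0.15 ± 0.59 for CCNA2 and 0.13 ± 0.54 for CCNB1. CCNB2 (cyclin B2) gave -0.038 ± 0.48, with 9.32, 10.05 and 9.13 after CET and 9.53, 9.94 and 9.15 after VEH. CCNF, the F-box cyclin that directs protein degradation, differed by 0.56 ± 0.57. Its 2 further probe sets gave 0.72 and -0.81, the latter dim. Relative to the VEH mean, the median over the 7 genes was -0.34, 0.46 and 0.11 in VEH replicates 4, 5 and 6, a wider span than the difference between the groups.

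**Figure D2:**
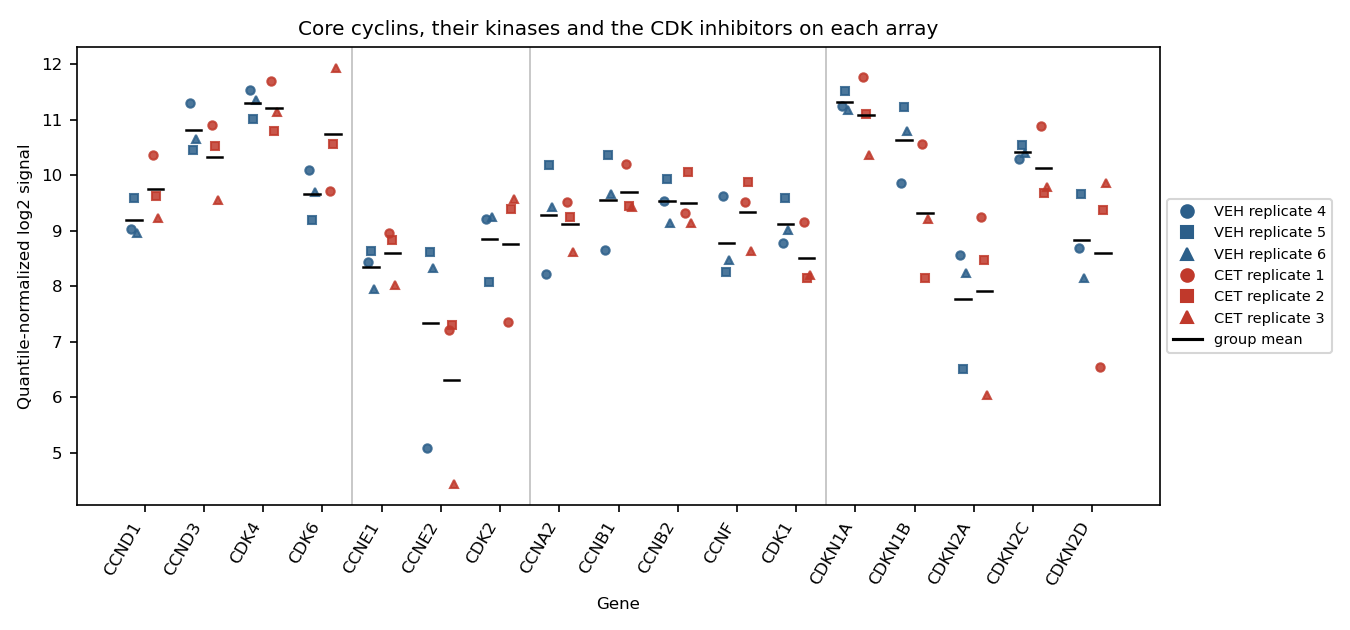
Quantile-normalized log2 signal (vertical axis) of the core cyclins, their kinases and the 5 CDK inhibitors in each VEH (blue) and CET (red) sample, with black lines at the group means. Points of the groups overlap in every gene drawn, and for CCNA2 and CCNB1 the VEH samples enclose all CET samples. The levels of different genes come from different probe sets and cannot be set against each other.

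CDK inhibitors bind cyclin-CDK complexes (the CDKN1 family) or CDK4 and CDK6 (the CDKN2 family) and slow or stop the cycle. Of the 5 measured, CDKN1A, CDKN1B, CDKN2C and CDKN2D had lower means after CET and CDKN2A a higher one, and none passed p under 0.05. The median was -0.24. The CET samples stood apart from each other. Relative to the VEH mean, the median over the 5 inhibitors was 0.46, -0.21 and -0.94 in CET replicates 1, 2 and 3. In the VEH samples, which are centred on that mean by construction, it ran from -0.12 to 0.20.

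CDKN1B encodes p27, which holds cells in a resting state. Its signal was 10.57, 8.15 and 9.22 after CET and 9.87, 11.23 and 10.79 after VEH. CET replicates 2 and 3 were below all VEH samples and CET replicate 1 was above the lowest of them, and the log2 fold change was -1.32 ± 0.63 (n = 3 each; 95% interval -2.69 to 0.058; unadjusted p = 0.059 by limma). The estimate depended on single samples, since omission of CET replicate 2 gave -0.75 and omission of CET replicate 1 gave -1.97. Its sign stayed negative under every alternative. The unadjusted p by limma ran from 0.0063 without CET replicate 1, where 16.3% of all genes had p under 0.05, to 0.22 without CET replicate 2.

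CDKN1A encodes p21, the inhibitor induced by p53. It read 11.77, 11.10 and 10.37 after CET and 11.25, 11.51 and 11.18 after VEH, so the CET samples reached both above and below the VEH samples and the difference was -0.23 ± 0.45. CDKN2C (p18) behaved in the same way, with 10.89, 9.68 and 9.80 against 10.30, 10.55 and 10.41 and a difference of -0.29 ± 0.46. CDKN2D (p19) differed by -0.24 ± 0.83 and CDKN2A (p16, whose locus also encodes ARF) by 0.15 ± 0.90. In both of these the CET samples spanned over 3 log2 units, from 6.55 to 9.86 for CDKN2D and from 6.05 to 9.24 for CDKN2A. No probe set carried CDKN1C or CDKN2B as its only symbol, and these were not analysed here.

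The CDC genes that act in mitosis held CDC25C, the gene of the set with the smallest p. CDC25C (Entrez gene 714115) is the phosphatase that activates CDK1 at the entry to mitosis. Its signal was 10.44, 10.97 and 10.76 after CET and 9.17, 9.16 and 9.87 after VEH. Every CET sample was above every VEH sample, and the log2 fold change was 1.33 ± 0.44 (n = 3 each; 95% interval 0.37 to 2.29; unadjusted p = 0.011 and adjusted p = 0.83 by limma). Without any 1 of the 6 samples it stayed between 1.17 and 1.55. A second, dim CDC25C probe set gave 0.065, and the mean of both was 0.70.

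The other mitotic CDC genes lay near or below VEH. The related phosphatase CDC25A, which activates CDK2, read 9.39, 8.30 and 8.76 after CET against 10.14, 9.28 and 9.56, a difference of -0.84 ± 0.51. Its 2 further probe sets gave -1.0 and -0.50, the latter dim. CDC25B, another phosphatase of the family, differed by -0.086 ± 0.45. CDC26 and CDC16 are subunits of the anaphase-promoting complex, the ubiquitin ligase that ends mitosis. CDC26 read 9.61, 9.41 and 8.73 after CET and 10.01, 10.48 and 9.61 after VEH. The groups separated by a margin smaller than the decimals printed, between CET replicate 1 and VEH replicate 6, and the difference was -0.79 ± 0.48. For CDC16 the difference was -0.56 ± 0.40.

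Over the 7 mitotic CDC genes, 5 had a lower mean after CET and the median was -0.56. Relative to the VEH mean, the median over these genes was -0.26, -0.62 and -0.37 in the CET samples. In the VEH samples, which are centred on that mean by construction, it ran from -0.029 to 0.0014. CDC25C lay on the opposite side, and CDC25B and the phosphatase CDC14B (0.026 ± 0.62) lay close to VEH, so this describes few genes. CDC20, CDC23 and CDC27, further parts of the anaphase-promoting complex or its activators, were not analysed here.

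Genes of replication licensing and firing build the helicase that opens DNA. ORC proteins mark origins, CDC6 helps to load the MCM complex, and CDC45 joins it when an origin fires. Of 14 such genes, 8 had lower and 6 higher means after CET, with a median of -0.10. MCM2 differed by -0.31 ± 0.46, MCM3 by 0.010 ± 0.52, MCM4 by 0.27 ± 0.52, MCM5 by -0.34 ± 0.58 and CDC45 by -0.018 ± 0.61. MCM4 showed how 1 sample could set a mean: it read 10.53, 12.30 and 10.58 after CET against 11.07, 10.58 and 10.96 after VEH, and without CET replicate 2 the difference turned to -0.32. The 3 further probe sets of MCM4 gave -0.48, -0.13 and -0.062, of which the first and the last were dim. MCM6 and MCM7 were not analysed here.

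Of 5 ORC subunits, ORC2, ORC3 and ORC4 had lower and ORC1 and ORC5 higher means. ORC4 read 8.12, 4.91 and 6.55 after CET and 8.55, 9.28 and 9.03 after VEH. All CET samples lay below all VEH samples, but they ran over 3.21 log2 units, and the CET mean was below the dim limit. The log2 fold change was -2.43 ± 0.83 (n = 3 each; 95% interval -4.24 to -0.62; unadjusted p = 0.013 and adjusted p = 0.83 by limma), the largest of the set in either direction. Leaving out CET replicate 2 gave -1.60, and leaving out CET replicate 1 gave -3.26. A second ORC4 probe set, which was dim, gave 0.53 ± 0.82. With the mean of both the difference was -0.95 (unadjusted p = 0.17 by limma).

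ORC3 read 8.06, 6.78 and 7.33 after CET and 7.65, 9.52 and 8.76 after VEH, a difference of -1.26 ± 0.69 with overlapping samples. Its CET mean of 7.39 was also below the dim limit. ORC5 read 8.99, 10.76 and 10.65 against 9.28, 9.23 and 9.34. CET replicates 2 and 3 were thus over 1 log2 unit above the narrow VEH range and CET replicate 1 was below it, for a difference of 0.85 ± 0.54. The 2 further probe sets of ORC5 gave -1.57 (a dim one) and -1.06, so the direction for this gene is not settled. The ORC subunits form 1 complex, and their probe sets did not move together.

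E2F factors switch on the genes of S phase and are held by the retinoblastoma family of pocket proteins. Of 7 E2F genes, 4 had higher and 3 lower means after CET, with a median of 0.15 and none at p under 0.05. E2F1, an activator, read 11.00, 9.15 and 8.91 after CET and 9.25, 8.82 and 8.63 after VEH. A single high sample, CET replicate 1, carried most of its difference of 0.79 ± 0.60. The 2 further probe sets of E2F1 gave 0.16 and -0.75, the latter dim. With the mean of all its probe sets the difference was 0.064. E2F4, which works mainly as a repressor, differed by 0.48 ± 0.41.

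E2F5, a repressor like E2F4, separated the groups by a narrow margin. Its values of 9.17, 9.06 and 9.54 after CET lay just below 9.71, 9.62 and 9.58 after VEH, and the difference was -0.38 ± 0.45 (n = 3 each; unadjusted p = 0.41 by limma, which also weighs the spread of other probe sets at this signal). E2F8, an atypical repressor measured at a dim probe set, read 8.97, 5.80 and 5.55 against 8.22, 7.52 and 7.84, a difference of -1.08 ± 0.93.

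**Figure D3:**
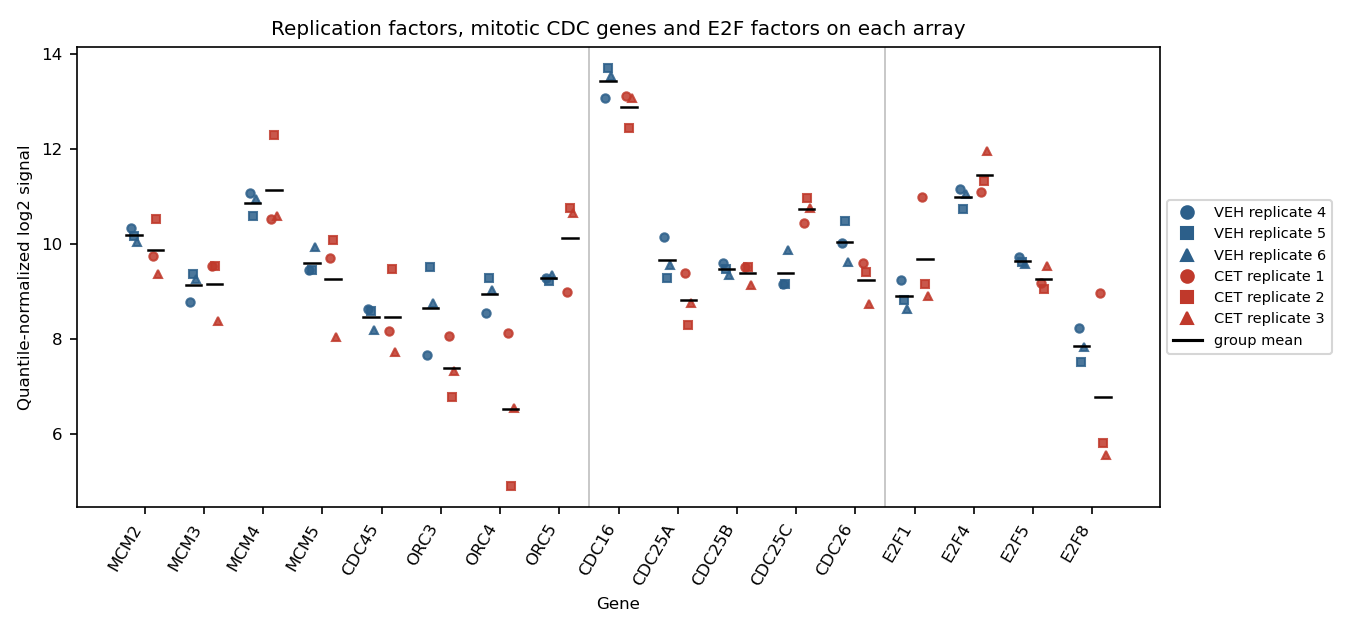
Quantile-normalized log2 signal (vertical axis) of replication factors, mitotic CDC genes and E2F factors in each VEH (blue) and CET (red) sample, with black lines at the group means. All CET points lie above the VEH points for CDC25C and below them for ORC4, CDC26 and E2F5, and in the other genes drawn the groups overlap.

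The partners of the E2F factors were read from a separate list of pocket proteins, dimer partners and subunits of the DREAM repressor complex, of which 8 of 9 were measured. Means were lower after CET for 5 and higher for 3, and 1 gene (12.5%, against 5.03% of all genes) passed p under 0.05. This was LIN37, a DREAM subunit, which read 11.49, 7.53 and 8.17 after CET and 11.55, 11.17 and 10.81 after VEH. CET replicate 1 stood with the VEH samples and the other two CET samples far below, and the log2 fold change was -2.11 ± 0.84 (n = 3 each; unadjusted p = 0.028 by limma). It was -3.37 without CET replicate 1, and it no longer passed without CET replicate 2 (-1.35), CET replicate 3 (-1.70), VEH replicate 4 (-1.94) or VEH replicate 5 (-2.05), nor with a covariate for RNA ends, the 3′ over 5′ signal of housekeeping controls (-1.88), or the mean of its probe sets (-1.28). LIN52, another DREAM subunit at a dim probe set, differed by 1.37 ± 0.76.

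Cyclins and kinases of transcription mainly phosphorylate RNA polymerase II or belong to the Mediator complex. Of 11 genes, 5 had lower and 6 higher means after CET, none passed p under 0.05 and the median was 0.23. CCNH, the cyclin of the CDK-activating kinase, read 7.17, 7.92 and 9.36 after CET and 8.42, 10.72 and 9.63 after VEH, a difference of -1.44 ± 0.73. CCNT2, a cyclin of the elongation factor P-TEFb, differed by 1.15 ± 0.82. For CCNT2, VEH replicate 4 stood at 5.80, far below the other VEH samples at 8.72 and 8.77. The 3 further probe sets of the gene were all lower after CET, at -1.38 and, where dim, at -0.52 and -1.93.

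Among 13 other cyclins and kinases, 7 had lower and 6 higher means, none passed p under 0.05 and the median was -0.058. CDK17, a kinase of the PCTAIRE family, read 9.83, 7.07 and 9.48 after CET against 9.16, 10.39 and 10.49, a difference of -1.22 ± 0.72. Its 2 further probe sets, both dim, gave 1.77 and -0.13. CCNJL, a cyclin J-like gene at a dim probe set, differed by -1.71 ± 1.06 with CET replicate 3 at 3.72. CDK16, a second PCTAIRE kinase, differed by only -0.27 ± 0.39 at its brightest probe set, while its 3 further probe sets gave -1.78 to -1.34. With each gene read as the mean of all its probe sets, CDK16 was the sole gene of the 89 at p under 0.05. That is 1.12% of the 89 genes, against 6.11% of all genes.

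Of the 18 genes that match by symbol only, 11 had lower and 7 higher means after CET and none passed p under 0.05. Most have no direct part in the cell cycle, such as CDC42, a GTPase of the cytoskeleton, and CDC37, a chaperone partner. Their median was -0.25. The smallest p values belonged to CDC42EP4, an effector of CDC42, at -1.08 ± 0.61 and to CDC42SE2, another effector, at 0.79 ± 0.49. A second, dim CDC42EP4 probe set gave 0.81.

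**Figure D4:**
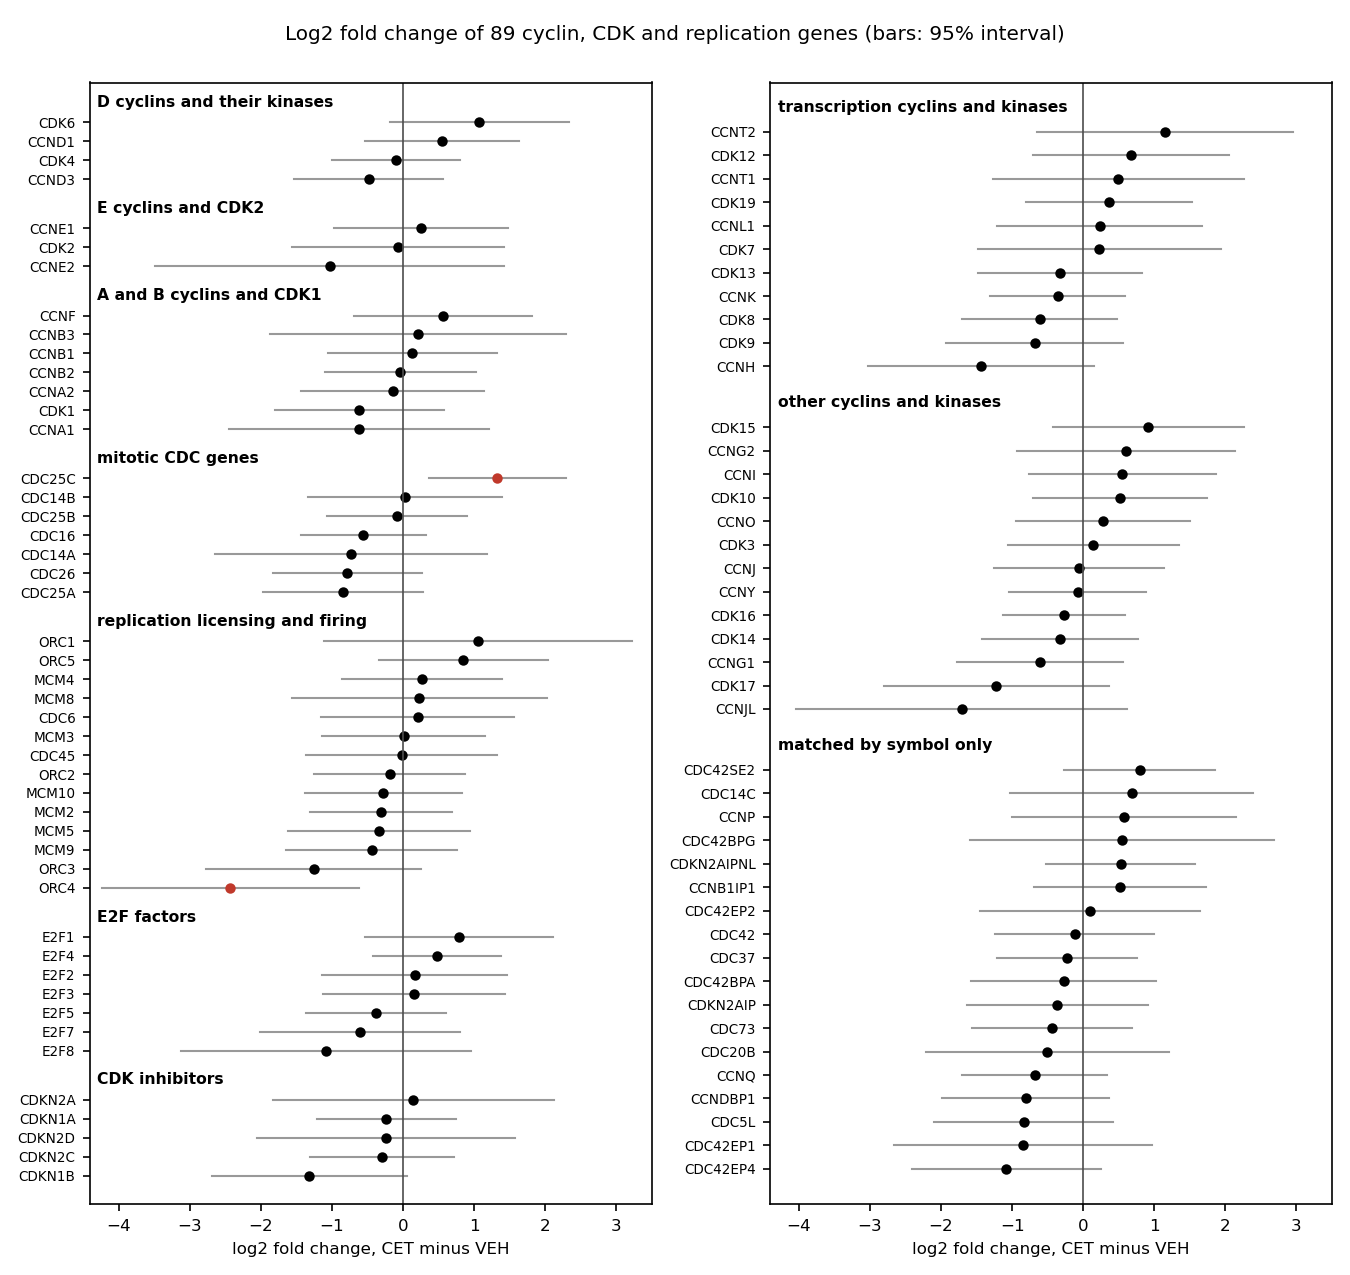
Log2 fold change of CET minus VEH (horizontal axis) for each of the 89 genes, by role, with 95% confidence intervals as bars. Points at an unadjusted p under 0.05 (CDC25C and ORC4) are red, and the bars of all other genes cross 0.

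Other genes of proliferation that the symbol rule leaves out were read from a list of 43, of which 30 were measured. Means were lower after CET for 17 and higher for 13, with a median of -0.087, and none passed p under 0.05. The samples separated for 1 of the 30 (3.33%, against 11.5% of all genes), namely TOP2A, the topoisomerase that untangles chromosomes in dividing cells. It read 10.25, 9.89 and 9.57 after CET and 10.43, 10.93 and 10.94 after VEH, a log2 fold change of -0.87 ± 0.42. AURKB, a mitotic kinase, lay on the other side at 0.83 ± 0.48. PCNA, the sliding clamp of replication, differed by -0.69 ± 0.43. The proliferation antigen MKI67 read 6.86, 9.89 and 7.14 after CET and 6.91, 9.69 and 8.46 after VEH. Its samples ranged widely within each group, and the difference was -0.39 ± 0.93.

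Of p53 targets that act on the cycle, 7 of 11 were measured, 5 with lower and 2 with higher means after CET, and none passed p under 0.05. MDM2, the ligase that degrades p53, differed by 1.05 ± 0.67, GADD45A, a stress-induced partner of PCNA, by -1.08 ± 0.77, and CCNG1 (cyclin G1) by -0.61 ± 0.53. GADD45A depended on single samples, at -0.12 without CET replicate 2, -1.85 without CET replicate 3 and -0.55 without VEH replicate 5, and at -0.10 with the covariate for RNA ends.

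Probe sets of the same gene often disagreed. The 47 genes with more than 1 probe set had 90 further probe sets, of which 48 (53.3%) changed in the same direction as the brightest one and 42 in the opposite direction. Over all genes the share was 55.8% of 10824. Each further probe set was by choice less bright than the one used, and some were dim. All probe sets of a gene had 1 direction in 17 of the 47 genes (36.2%), against 43.4% over all genes. The remaining 42 of the 89 genes were read by 1 probe set, so their direction has no such check.

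**Figure D5:**
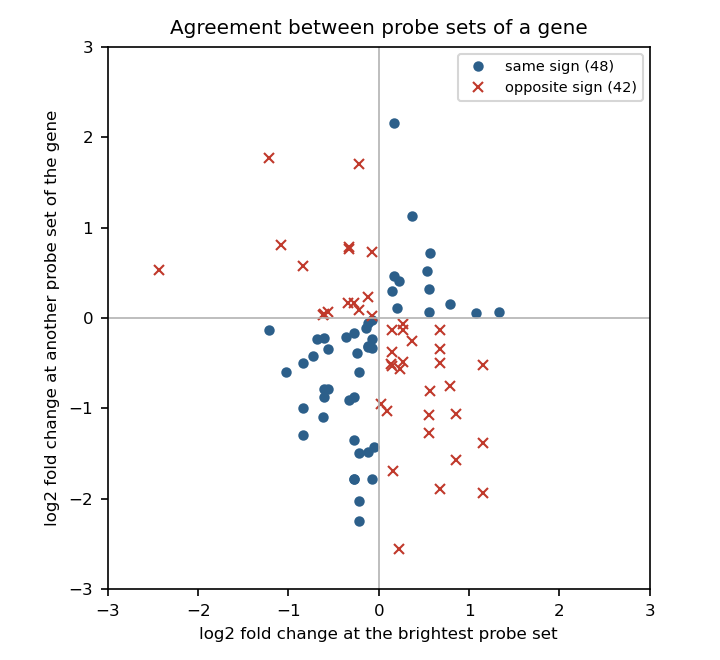
Log2 fold change of each further probe set of a gene (vertical axis) against that of its brightest probe set (horizontal axis) for the 47 genes with more than 1 probe set. The 48 points of the same sign (blue) and 42 of opposite sign (red crosses) fill all 4 quadrants.

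The tissue and the samples bear on these values. All 6 luteal markers measured of 10 lay above the dim limit and had lower means after CET. STAR, the cholesterol carrier of steroid synthesis, lay at the 99.9th percentile of genes by mean signal and differed by -1.49, and INHA (inhibin alpha) differed by -0.99. Their summed signal ran from 34000 to 81113 after CET and from 68175 to 104871 after VEH. For endothelial markers, 10 of 10 measured and 8 lower, the sums ran from 15923 to 26552 and from 16796 to 23204, with CDH5 at -1.52 and TEK at 0.84 and with FLT1 and KDR below the dim limit. For fibroblast and pericyte markers, 6 of 10 measured and 4 lower, they ran from 12833 to 33874 and from 24940 to 34659. COL1A1 was at -2.63 and TAGLN at -0.82, while COL3A1 and LUM had higher means. For COL1A1, CET replicate 1 lay within the VEH range. For leukocyte markers, 6 of 10 measured and 4 lower, the sums ran from 4101 to 10258 and from 2978 to 9377. CD68 was at 0.79 and CSF1R at -0.70. Sums of linear signal follow the brightest genes, so they do not measure a whole cell type. The leukocyte gene LYZ read 12.25, 7.15 and 13.09 after CET and 8.23, 12.75 and 12.62 after VEH. The fibroblast gene DCN read 13.09, 12.31 and 14.61 after CET and 12.50, 14.01 and 14.24 after VEH. STAR, CDH5 and COL1A1 had an unadjusted p under 0.05 by limma, 1 gene in each of their lists (16.7%, 10% and 16.7%, against 5.03% of all genes). No leukocyte marker did, and no marker passed the adjusted p. The part of these cell types in the values of the cycle genes was not tested.

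The samples also differed in RNA ends. The 3′ signal of the GAPDH control was 143 times its 5′ signal in CET replicate 2 and 1.79 to 7.31 times in the other samples. For the ACTB and EF1A controls it was 37.2 and 42.2 times in CET replicate 2 and 22.4 and 9.56 times in VEH replicate 4. With the mean 3′ to 5′ ratio of the housekeeping controls as a covariate, ORC4 differed by -1.87 and CDKN1B by -0.82. Each CET sample correlated more with the VEH samples than with the other CET samples over probe sets, by a mean Spearman rho of 0.756 against 0.664 for CET replicate 1, 0.727 against 0.710 for CET replicate 2 and 0.733 against 0.709 for CET replicate 3. Without CET replicate 1, 13 of the 89 genes (14.6%) had p under 0.05, against 16.3% of all genes, and none passed the adjusted p. Among these 13 were CDKN1B, CDC25A, CDK6, E2F8 and ORC5 beside CDC25C and ORC4.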

How the data were processed

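The authors deposited 1 linear intensity per probe set and array, made with MAS5 (named in the submitters' processing notes) and scaled to a common trimmed mean of 500. Which MAS5 version made them, and which probe sets it called present, is not given in the sources used here. Signals under 1 were set to 1, log2 values of all 52865 probe sets were quantile-normalized, and 158 controls were dropped. The 2 groups were fitted in limma (version 3.58.1, R 4.3.3) with eBayes and a trend on mean signal, and p-values were adjusted by Benjamini-Hochberg over 52707 probe sets at 0.05. An exact permutation test of 3 against 3 samples cannot go below p = 0.1.

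The platform annotation gave 1 symbol for 24956 probe sets, several for 361 and none for 27390, and gene names come from the first group. A gene was read at its probe set with the highest mean over 6 arrays. The 89 genes had 179 probe sets. The probe sets used for CDKN2A, CDC42EP4, CDKN2AIP, CDC42, CDC14B, CCNJ, MCM5, CCNT2 and CDK7 are of a type that can read several transcripts, so their values are uncertain. Probe sets at or under the 40th percentile of mean log2 signal (7.43) were called dim. 19 cycle genes, among them CCND2, CDC20, MCM6 and MCM7, had no probe set under their symbol alone.

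The genes and lists were chosen with earlier results of these data known. Named with values were the principal cyclins, kinases and inhibitors, genes at p under 0.05 and, from each role (genes matched by symbol only apart) or list, the 2 of smallest p, 41 in all. A further 18 (E2F5, E2F8, CDC25A, CDC25B, CDC16, MCM2, MCM3, MCM4, MCM5, ORC5, CDC45, MKI67, PCNA, CCNG1, CDK16, CDC14B, CDC42EP4 and CDC42SE2) were named after their values were seen. Alternatives were the signals as deposited, array medians, a pseudocount of 16, dim probe sets left out, no trend, array weights, the methods' t-test, the mean of all probe sets of a gene, a covariate for the 3′ to 5′ ratio, and leaving out each sample. The methods' t-test is Student's test, which the study's methods name for hormone and RT-PCR data and not for the arrays. The test was checked on simulated data.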

Additional observations from a re-analysis of the deposited data

Results flagged for a closer look

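In CET replicate 2 the GAPDH control probe sets gave a 3′ to 5′ ratio of 143, a measurement outside the gene comparisons that stood above its level in the VEH samples.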

How the results depend on the processing

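None of the 89 genes passed the adjusted p under any alternative, and their smallest adjusted p ran from 0.249 to 0.999. The count at unadjusted p under 0.05, 2 as reported, was 4 with array medians subtracted (4.49%, against 7.7% of all genes). It was 10 with array weights (11.2%, against 11.0% of all genes). With the methods' t-test it was 1 (CDC25C; 1.12%, against 5.28% of all genes). With the mean of all probe sets it was also 1 (CDK16; 1.12%, against 6.11% of all genes). Leaving out 1 sample gave 2 to 13, with 13 without CET replicate 1, 4 without CET replicate 3 and 6 without VEH replicate 4, or 14.6%, 4.49% and 6.74% of the 89 genes against 16.3%, 4.01% and 4.2% of all genes. Array medians moved the median of all genes to -0.20, and with them 10 of the 89 genes did not overlap between groups (14.3% of all genes) and their median was -0.29. With the mean of all probe sets that median was -0.28 (-0.10 over all genes). Leaving out 1 sample moved it between -0.19 and 0.011, that of the proliferation genes between -0.20 and 0.042 and that of the inhibitors between -0.57 and -0.13. The sign of all-gene differences also shifted: 54.7% of genes were lower as reported, 59.6% with array medians and 49.8% with the signals as deposited, against 51, 53 and 45 of the 89 genes.

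Of 59 genes named, 41 kept their direction under all alternatives and 18 did not, and for these the cause was not tested. With the signals as deposited, the sign turned for CCNB2 (0.031), CDK2 (0.17), CDC25B (0.013) and CDC45 (0.21). With array medians it turned for CCNB1 (-0.068), MCM3 (-0.087), MCM4 (-0.14) and CDC45 (0.0065). Array weights turned CCNB1 (-0.098), CCNB2 (0.040), CDK2 (0.21), CDKN2A (-0.092), CDKN2D (0.24), MCM3 (-0.14) and CDC45 (0.081). The mean of all probe sets turned CCNB1 (-0.19), CDKN2A (-0.25), CCNT2 (-0.67), CDK17 (0.14), MCM4 (-0.10), ORC5 (-0.59) and CDC14B (-0.46). The 3′ to 5′ covariate turned CCNA2 (0.016), CDKN2A (-0.49), MCM3 (-0.12) and MCM4 (-0.19). When 1 sample was left out, CCNA2 ranged from -0.68 to 0.30, CCNB1 from -0.33 to 0.52, CCNB2 from -0.31 to 0.15, CDK2 from -0.47 to 0.65, CDK4 from -0.33 to 0.12, CDKN1A from -0.57 to 0.12, CDKN2A from -0.51 to 1.09, CDKN2D from -0.88 to 0.81, CDC25B from -0.15 to 0.044, MCM3 from -0.19 to 0.40, MCM4 from -0.32 to 0.57, MCM5 from -0.73 to 0.29, CDC45 from -0.52 to 0.36, CDC14B from -0.27 to 0.41 and MKI67 from -1.34 to 0.27.

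No paired analysis was possible because the labels number CET and VEH samples without any shared replicate number. LIN37 had an unadjusted limma p of 0.061 without the trend and 0.165 by the methods' t-test. The number of arrays limits the precision, with a median replicate SD of 0.65 over the 89 genes.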
